A study of Mus musculus with 18 samples.

Results

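Colon RNA of mice with dextran sulfate sodium (DSS) colitis, the Model group, was compared with colon RNA of untreated mice, the Control group. Each group had 6 libraries. Of the 36451 genes in the deposited table, 13403 reached an FPKM (fragments counted per unit of transcript length and of sequencing depth) of at least 1 in at least 6 of these 12 libraries, and all 13403 were tested and are described here. The Model mice had free access to 3% DSS in their drinking water for 1 week and were then gavaged with PBS. The Control mice were C57BL/6J males of 6 weeks, kept under specific-pathogen-free conditions with no stated treatment. Sex, strain and age are not restated for the Model mice, and the labels do not give the time from DSS to tissue collection. A difference in age or cohort therefore cannot be told apart from DSS, and the 2 groups carry separate ranges of library numbers. The whole series asks whether the gut bacterium Akkermansia muciniphila acts on colitis through ferroptosis, an iron-dependent form of cell death. The group given the bacterium is not analysed here, and no library is labelled with erastin, the ferroptosis agonist that the study's design names.

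DSS is a sulfated polysaccharide that damages the colonic epithelium and lets luminal bacteria reach the lamina propria, the connective tissue under the epithelium. Acute injury is followed by neutrophil and monocyte entry, by re-epithelialisation from the crypts, and by a phase in which fibroblasts lay down and cross-link collagen and plasma cells accumulate. The colon is renewed by crypt stem cells, whose progeny become absorptive colonocytes, mucus-secreting goblet cells, hormone-secreting enteroendocrine cells and tuft cells.

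Total estimated counts were 58841661 to 79147073 per Model library and 53873744 to 65705141 per Control library. Muc2, the main secreted mucin of goblet cells and a defining gene of colon epithelium, was at 26.3 to 1247 FPKM in the Model libraries (median 832), against 589 to 1741 FPKM in the Control libraries (median 1356). Model_1337 had the lowest Muc2 and a goblet cell list at -3.06 log2 units from the Control mean, and its squamous and skeletal muscle markers, given next, go against its colon label. A pair of Model libraries, Model_1337 and Model_1341, stood apart from the other 4. Model_1337 had a median Spearman correlation of 0.805 with the other Model libraries, while the other 5 Model libraries had 0.912 to 0.944. In Model_1337, 60 genes lay at least 2 log2(FPKM + 1) units above and 154 genes at least 2 units below all 11 other libraries. Its squamous epithelium markers (21 genes, among them the basal keratins Krt5 and Krt14) summed to 7747 FPKM, against 64.5 to 128 FPKM in the other Model libraries and 37.8 to 134 FPKM in the Control libraries. Krt5 alone was at 1059 FPKM in Model_1337 and at most 0.328 FPKM elsewhere. Skeletal muscle markers summed to 476 FPKM in Model_1337 and to at most 17.7 FPKM in the other 11 libraries. Model_1341 had 16.99% of its counts on mitochondrially encoded genes, while the other Model libraries had 3.93% to 7.70% and the Control libraries 5.89% to 8.59%. Small intestine markers summed to 2043 FPKM in Control_2286, against 43.1 to 381 FPKM in Model and 170 to 514 FPKM in the other Control libraries. Distal hindgut Hox markers summed to 17.7 to 148 FPKM in Model and 8.53 to 50.9 FPKM in Control. Model_1316 (61.7 FPKM), Model_1337 (77.2 FPKM), Model_1340 (148 FPKM) and Model_1341 (63.4 FPKM) lay above every Control library. The part of sampled position along the colon was not tested. Erythroid markers summed to 712 FPKM in Model_1337 and 556 FPKM in Model_1338 and to at most 92.4 FPKM elsewhere. Separate animals behind the 6 libraries of a group are not stated, so a p-value speaks only of the variation among these libraries, some of which may be technical.

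**Figure D1:**
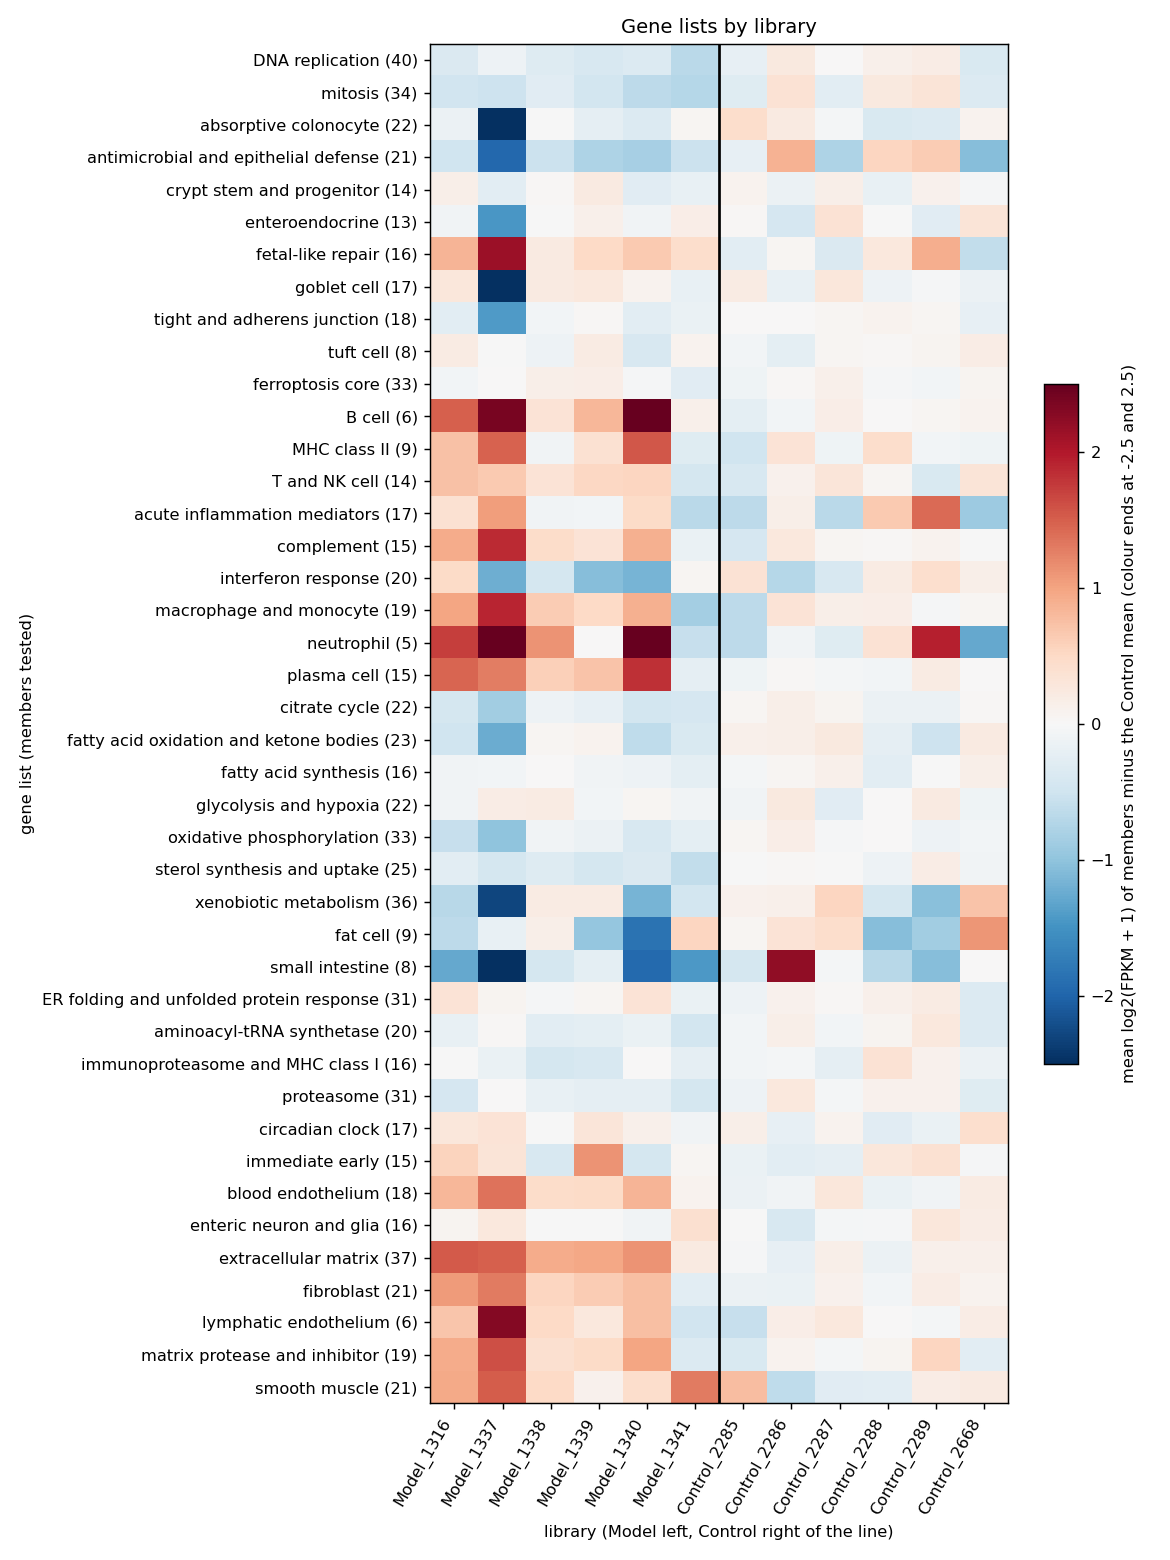
Mean log2(FPKM + 1) of the tested members of each of 42 gene lists, minus the Control mean, in the 6 Model libraries (left) and the 6 Control libraries (right). Extracellular matrix genes lie between 0.23 and 1.54 above the Control mean in all 6 Model libraries, Model_1337 alone is far below it for absorptive colonocyte (-2.61) and goblet cell genes (-3.06), and Model_1341 lies below it for macrophage genes (-0.85).

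Colon of DSS-treated mice had more transcripts of 29 of 37 extracellular matrix genes, 12 of 18 blood endothelial genes and 7 of 15 plasma cell genes, of which 15, 1 and 2 were called in every fit that left out 1 library. It had fewer transcripts of 11 of 25 sterol synthesis and uptake genes, 12 of 40 DNA replication genes and 13 of 34 mitosis genes, of which 6, 1 and 1 were called in every such fit. By edgeR's quasi-likelihood test with Benjamini-Hochberg adjustment over the 13403 genes, 572 genes (4.27%) were higher and 199 (1.48%) lower, 5.75% together, in Model than in Control at an adjusted p under 0.05. The 4.27% and 1.48% are the background for the counts of every list below. The rises were larger: 290 of the 572 had a log2 fold change of at least 1, and 22 of the 199 had one of -1 or less. The median log2 fold change was 1.01 over the genes that rose, -0.62 over those that fell, and -0.00 over all genes tested. In whole tissue, fewer cells of a type and less RNA per cell cannot be told apart.

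The number of calls rested on single libraries. With 1 library left out in turn, the calls ran from 70 higher and 27 lower (without Control_2288) to 1046 higher and 293 lower (without Model_1341). Leaving out any of 7 libraries (Model_1316, Model_1340, Control_2285, Control_2286, Control_2287, Control_2288 and Control_2289) ended 567 to 674 of the 771 calls. The log2 fold changes of all 771 kept their sign in all 12 of these fits. In every one of the 12 fits 61 genes were called higher (0.455%) and 25 called lower (0.187%). Most lists described below held none of these genes, and many calls named below were lost in some fits. The 6 Model values lay wholly above the 6 Control values in 194 genes (1.45%) and wholly below in 192 genes (1.43%). Of the genes called in all 12 fits, 43 higher and 22 lower ones had such groups without overlap. Only 7 genes were at 1 FPKM or more in all 6 libraries of one group and in 0 of the other (5 in Model, 2 in Control), a choice that by itself makes the groups differ. Other genes that were low in Control, among them Ighg3 and Gpnmb, passed the filter mainly through Model, which also favours a rise.

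**Figure D2:**
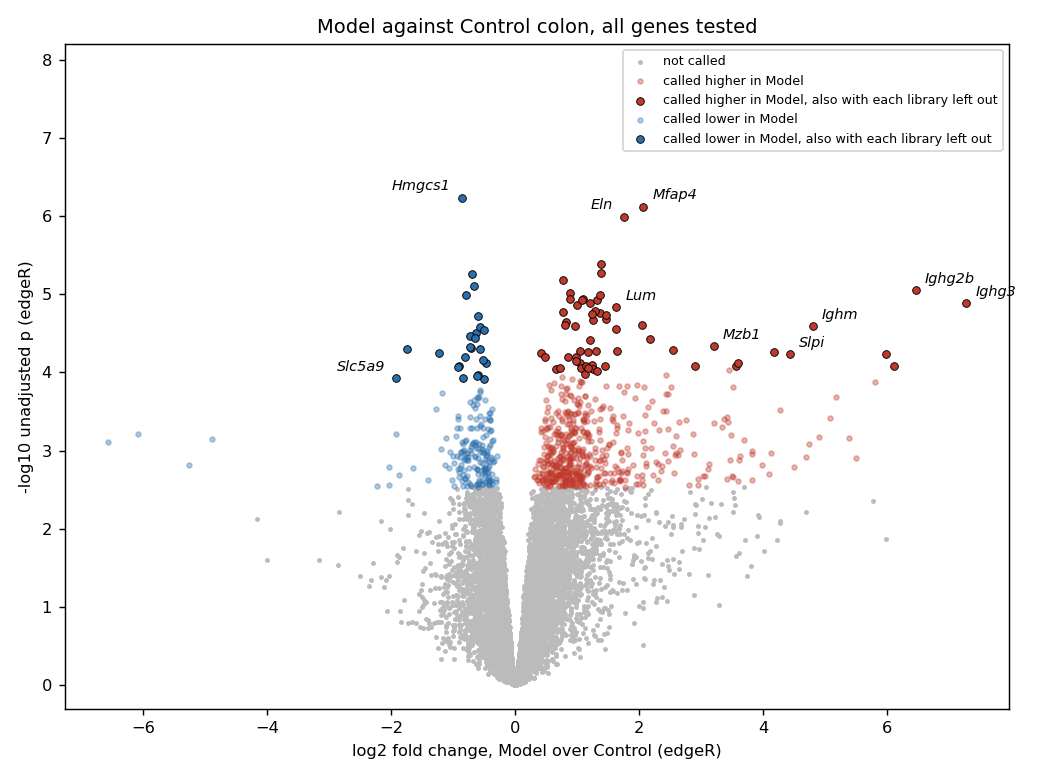
Log2 fold change of Model over Control (x) against -log10 of the unadjusted edgeR p (y) for 13403 genes. Outlined points are the 61 higher and 25 lower genes called in every fit that left out 1 library, and among them the rises reach 7.28 (Ighg3) and the falls -1.92 (Slc5a9, a sugar transporter).

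Structural proteins of connective tissue rose, and of all lists theirs held the most rises called. All 37 tested members of an extracellular matrix list had a log2 fold change above 0, 29 of them rose and 0 fell (4.27% and 1.48% of all genes tested), and the median was 1.06, against -0.00 over all genes. With 1 library left out the number that rose was 18 without Model_1316 or Model_1340, 16 without Control_2287, 15 without Control_2286 or Control_2288, and 20 to 35 otherwise, and 15 rose in all 12 fits. Fibrillar collagens give tissue its tensile strength. Col3a1, the reticular collagen of soft tissue, had 49.6 to 191 FPKM in the Model libraries (median 132), against 43.7 to 61.3 FPKM in the Control libraries (median 48.5). One Model library, Model_1341 at 49.6 FPKM, lay inside the Control range, and the other 5 lay at 117 FPKM or more. The log2 fold change was 1.30 ± 0.22 (SE) at an edgeR adjusted p of 0.0141. Col1a1 and Col1a2 encode the chains of type I collagen. Col1a1 (ENSMUSG00000001506) averaged 55.1 ± 21.2 FPKM in Model, against 22.4 ± 2.22 FPKM in Control (SD, n = 6 each), a log2 fold change of 1.25 ± 0.19, and all Model libraries were above all Control libraries. Col1a2 averaged 43.5 ± 16.7 FPKM in Model, against 17.7 ± 1.49 FPKM in Control (SD, n = 6 each), and again Model_1341 alone (16.6 FPKM) lay among the Control values. Col5a2 (ENSMUSG00000026042, chr1:45374321-45503282 on mm10), a regulator of fibril diameter, was at 6.86 to 22.1 FPKM in the Model libraries (median 15.4), against 4.90 to 6.30 FPKM in the Control libraries (median 5.70), with no overlap between the groups. Its log2 fold change was 1.36 ± 0.19 and its edgeR adjusted p 0.00960. The type IV collagens Col4a1 and Col4a2, which form the network of basement membranes, had log2 fold changes of 1.05 and 1.06, with overlap between the groups. Fn1 (1.76), Dcn (1.40) and Fbn1 (1.02) also rose, but in 7, 5 and 9 of the 12 fits. The members that did not pass, among them the collagen VI genes Col6a1 (0.72) and Col6a2 (0.49), and Postn (0.70) and Tnc (0.92), had log2 fold changes of 0.49 to 1.03.

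Elastic fibre genes were among the rises called in all 12 fits. Elastin is deposited on a scaffold of microfibrils and lets tissue recoil. Eln (ENSMUSG00000029675, chr5:134702593-134747323) was at 6.49 to 13.2 FPKM in the Model libraries (median 10.3), against 1.98 to 3.79 FPKM in the Control libraries (median 2.69). Even the lowest Model library was above the highest Control library, and the log2 fold change was 1.75 ± 0.20 (edgeR adjusted p = 0.00454). Mfap4 (ENSMUSG00000042436, chr11:61485431-61488900), a microfibril-associated glycoprotein, was at 24.1 to 65.4 FPKM in the Model libraries (median 38.5), against 6.34 to 11.8 FPKM in the Control libraries (median 10.2), a log2 fold change of 2.07 ± 0.23, and the groups did not overlap. Fbln5, which tethers elastin to microfibrils, averaged 5.16 ± 1.196 FPKM in Model, against 2.01 ± 0.523 FPKM in Control (SD, n = 6 each), and its log2 fold change of 1.31 ± 0.19 had an edgeR adjusted p of 0.00960. Mfap2, another microfibril component, averaged 5.49 ± 1.41 FPKM in Model, against 2.24 ± 0.421 FPKM in Control (SD, n = 6 each). Lum, a small proteoglycan that coats collagen fibrils, was at 32.1 to 124 FPKM in the Model libraries (median 56.4), against 17.7 to 27.9 FPKM in the Control libraries (median 18.8). The highest Lum values were in Model_1337 (124 FPKM) and Model_1316 (73.4 FPKM), and the lowest Model value, 32.1 FPKM in Model_1341, was still above every Control library. Cilp, a matrix protein first described in cartilage, averaged 12.8 ± 5.03 FPKM in Model, against 4.62 ± 1.12 FPKM in Control (SD, n = 6 each) and rose by 1.44 on the log2 scale. Sparc, a collagen-binding matricellular protein, averaged 127 ± 34.8 FPKM in Model, against 57.8 ± 6.78 FPKM in Control (SD, n = 6 each), with a log2 fold change of 1.09 ± 0.16 and no overlap.

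Several enzymes that process collagen rose. Prolyl and lysyl hydroxylases act on nascent chains in the endoplasmic reticulum, propeptidases trim the secreted chains, and lysyl oxidases create the cross-links. Plod2 (ENSMUSG00000032374, chr9:92542223-92608428), the lysyl hydroxylase of collagen telopeptides, was at 4.18 to 10.6 FPKM in the Model libraries (median 6.74), against 1.96 to 3.03 FPKM in the Control libraries (median 2.59). The groups did not overlap, and the log2 fold change was 1.39 ± 0.18 (edgeR adjusted p = 0.00960). Lox, a copper-dependent lysyl oxidase, was at 2.59 to 16.6 FPKM in the Model libraries (median 9.11), against 1.202 to 2.85 FPKM in the Control libraries (median 1.89). Model_1341 (2.59 FPKM) lay below the highest Control library, Control_2289 (2.85 FPKM), and the log2 fold change of Lox was 2.18 ± 0.35. Its relatives Loxl1 and Loxl2 had log2 fold changes of 1.29 ± 0.19 and 0.96 ± 0.15. Adamts2 and Bmp1, which remove the amino- and carboxy-terminal propeptides of procollagen, had log2 fold changes of 1.46 ± 0.22 and 1.18 ± 0.20, and neither gene's groups overlapped. Ppic, cyclophilin C, a prolyl isomerase of the secretory pathway, averaged 25.2 ± 12.7 FPKM in Model, against 7.83 ± 1.12 FPKM in Control (SD, n = 6 each) and rose by 1.62 on the log2 scale. P3h3, a member of the prolyl 3-hydroxylase family, rose by 0.98. All of these enzymes were called in each of the 12 fits that left out 1 library. They are named because they were called. In the Reactome term Collagen biosynthesis and modifying enzymes, chosen after its values were seen and holding collagens as well, 20 of 38 tested genes rose (52.6%, median 0.90) and the others did not pass.

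**Figure D3:**
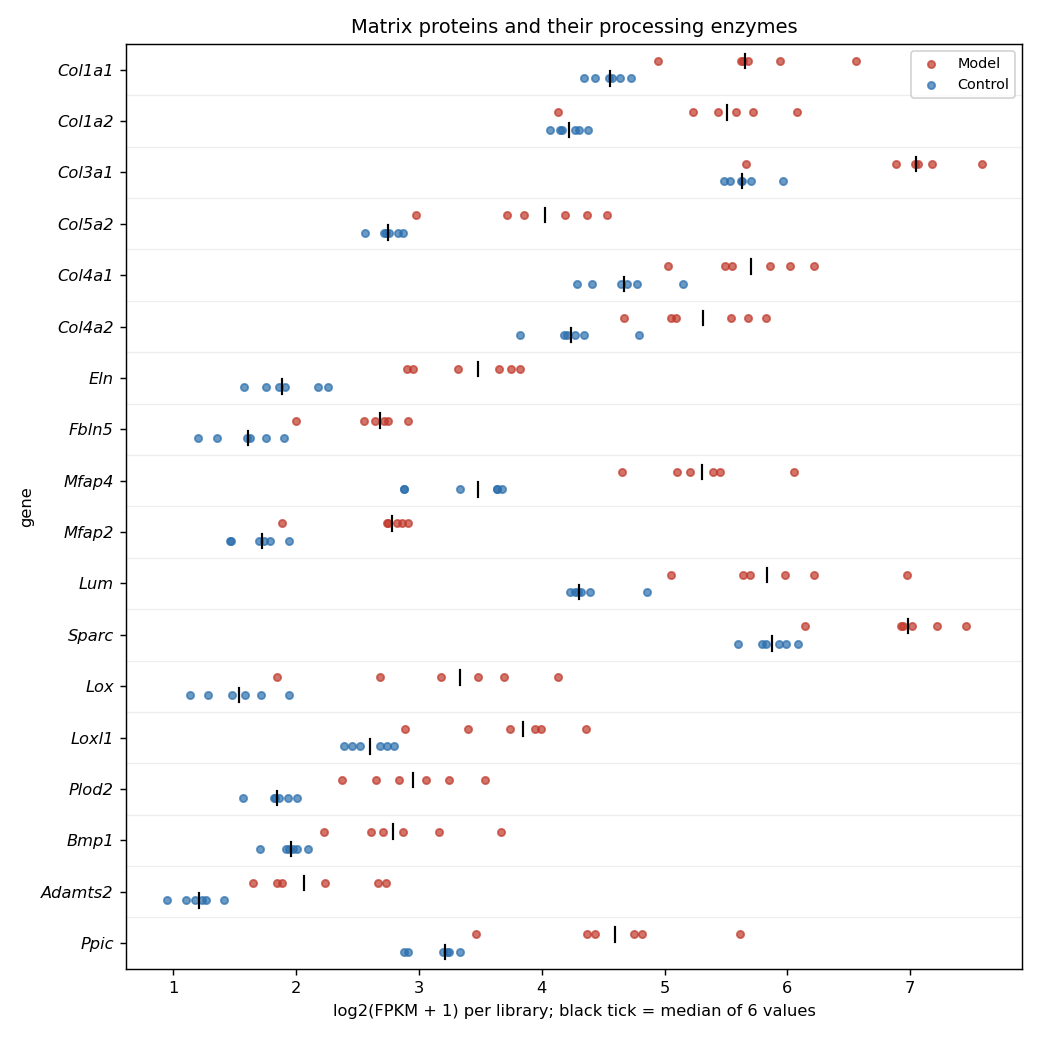
Level in log2(FPKM + 1) of 18 matrix and matrix-processing genes, with 6 Model libraries above 6 Control libraries for each gene and a tick at the median. For Col5a2, Eln, Mfap4, Lum, Sparc, Loxl1, Plod2 and others the groups do not overlap. For Col3a1, Col1a2, Lox and Mfap2 the lowest Model library, Model_1341, reaches the Control range, and the groups of Col4a1 and Col4a2 overlap too.

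Among matrix proteases and their inhibitors, 6 of 19 tested members rose and 0 fell, with a median log2 fold change of 1.03 (0.66 without Model_1337). The number was 2 or 3 with any 1 of the 7 libraries left out named above. Adamts2 and Mmp23, a membrane-bound metalloproteinase, were called in all 12 fits, and Mmp23 averaged 4.87 ± 1.53 FPKM in Model, against 2.04 ± 0.369 FPKM in Control (SD, n = 6 each). Mmp2 (1.41), a gelatinase, Timp2 (1.18), its inhibitor, Mmp11 (1.06) and Mmp14 (0.92) rose in 2 to 6 of the 12 fits. The proteases of acute inflammation Mmp3 (1.03), Mmp9 (0.67), Mmp10 (0.81) and Mmp13 (0.68) did not pass the test.

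Of 21 fibroblast genes 8 rose and 0 fell (median log2 fold change 0.82). The count was 0 to 3 with any 1 of the 7 libraries left out and 14 without Model_1341, and 0 were called in all 12 fits. Grem1, a secreted BMP antagonist of the cells under the crypt base, was at 30.0 to 119 FPKM in the Model libraries (median 71.2), against 6.96 to 30.5 FPKM in the Control libraries (median 9.22). Only Control_2289 (30.5 FPKM) among the Control libraries reached the lowest Model values. Its log2 fold change was 2.52 ± 0.47 (edgeR adjusted p = 0.0198), and the call was lost without Control_2286, Control_2287 or Control_2288, with an adjusted p of at most 0.0586. Thy1, a surface glycoprotein of fibroblasts and T cells, averaged 8.90 ± 4.61 FPKM in Model, against 3.49 ± 0.665 FPKM in Control (SD, n = 6 each), and Rspo3, a Wnt-enhancing ligand, had a log2 fold change of 1.51. Pdgfra (0.65), Gli1 (-0.36) and Foxl1 (0.25), genes of the subepithelial mesenchyme, did not pass. Blood endothelial genes rose in 12 of 18 members, with 0 that fell and a median of 0.97. That count was 1 or 2 with any 1 of the 7 libraries left out and 7 without Model_1337. Sox18 (ENSMUSG00000046470, chr2:181669836-181671640), a transcription factor of vascular and lymphatic endothelium, was at 6.49 to 14.9 FPKM in the Model libraries (median 10.3), against 3.37 to 5.32 FPKM in the Control libraries (median 3.53) with no overlap, a log2 fold change of 1.38 ± 0.18 and a call in all 12 fits. Aplnr, the apelin receptor of sprouting vessels, averaged 2.503 ± 0.669 FPKM in Model, against 0.886 ± 0.266 FPKM in Control (SD, n = 6 each), with no overlap and a call in all 12 fits. Cdh5 (1.16) and Pecam1 (1.15), junction proteins of endothelium, and Eng (0.76), a TGF-beta co-receptor, rose in 5 or 6 of the 12 fits. Vcam1, which captures leukocytes on activated endothelium, was at 1.40 to 14.5 FPKM in the Model libraries (median 9.35), against 1.29 to 2.82 FPKM in the Control libraries (median 1.91), rose by 2.08, and lost its call without Control_2286, Control_2287 or Control_2288. No lymphatic endothelium gene of 6 was called (median 1.23, and 0.60 without Model_1337), and 2 were called without Model_1341. Of these, Ccl21a, which has near-identical copies and is uncertain for that reason, had a log2 fold change of 1.52 ± 0.44, with 329 FPKM in Model_1337 and 35.3 to 148 FPKM in the other Model libraries, against 23.9 to 54.1 FPKM in Control.

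Smooth muscle genes had a median of 0.80, and 1 of 21 rose, 5 without Model_1339 and at most 1 without any other library. That gene was Tagln, an actin-binding protein, at 315 to 910.3 FPKM in the Model libraries (median 532), against 133 to 428 FPKM in the Control libraries (median 216), called in 3 of the 12 fits. The smooth muscle list was highest in Model_1337 (1.52 above the Control mean) and Model_1341 (1.29), and Control_2285 (0.76) lay above Model_1339 (0.10), so the groups overlapped. None of 16 enteric neuron and glia genes was called (median 0.16), with Ncam1 at 0.48 and Gfap at 0.83. Its part in the stromal rises was not tested. The absorptive colonocyte list lay at -2.61 in Model_1337 and between -0.34 and 0.05 in the other Model libraries, against -0.37 to 0.44 in Control, and its part was not tested either. The extracellular matrix list was 0.92 to 1.54 above the Control mean in the 5 Model libraries other than Model_1341 and 0.23 in Model_1341, against -0.21 to 0.14 in Control.

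Immunoglobulin genes had the largest rises called. Plasma cells of the normal colon mainly secrete IgA, which is carried into the lumen, while IgG and IgM are made in quantity when the mucosa is inflamed. These genes share sequence, and counting could split reads among near-identical members, so single isotypes are uncertain. Ighg3 was at 9.61 to 158 FPKM in the Model libraries (median 40.5), against 0.0409 to 1.41 FPKM in the Control libraries (median 0.172). It passed the FPKM filter through its Model values, so its selection favours a rise. Ighg2b was at 38.4 to 1059 FPKM in the Model libraries (median 421), against 1.28 to 8.75 FPKM in the Control libraries (median 5.32). Ighg2c, the IgG2 isotype of C57BL/6 mice, was at 41.8 to 1528 FPKM in the Model libraries (median 241), against 1.80 to 15.3 FPKM in the Control libraries (median 5.90). In all 3 the lowest Model library was above the highest Control library. Their log2 fold changes were 7.28 ± 1.05, 6.46 ± 0.90 and 6.11 ± 1.07, with edgeR adjusted p-values of 0.00960, 0.00960 and 0.0152. Ighm, the IgM constant region, was at 23.8 to 703 FPKM in the Model libraries (median 169), against 5.72 to 10.3 FPKM in the Control libraries (median 7.51), a log2 fold change of 4.80 ± 0.74 with no overlap. Igha, the IgA constant region, was the most abundant of these heavy chains in both groups, at 361 to 5299 FPKM in the Model libraries (median 2725), against 373 to 859 FPKM in the Control libraries (median 599.7). Its log2 fold change was 2.098 ± 0.49 (edgeR adjusted p = 0.0359), and the call was lost with any 1 of the 7 libraries left out. Igkc, the kappa light chain, was at 1533 to 20208 FPKM in the Model libraries (median 8938), against 1188 to 2181 FPKM in the Control libraries (median 1706), a log2 fold change of 2.47 ± 0.47, and lost its call without Model_1316, Control_2286, Control_2287 or Control_2288. Iglc2, a lambda chain, rose by 4.17 and was called in all 12 fits. Model_1341 was the lowest Model library for Igha, Igkc and Iglc2, below the Control range for Igha and within it for Igkc and Iglc2. Over the whole table, immunoglobulin genes took 0.318% of the counts in Model_1341 and 1.18% to 4.56% in the other 5 Model libraries, against 0.225% to 0.529% in the Control libraries.

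**Figure D4:**
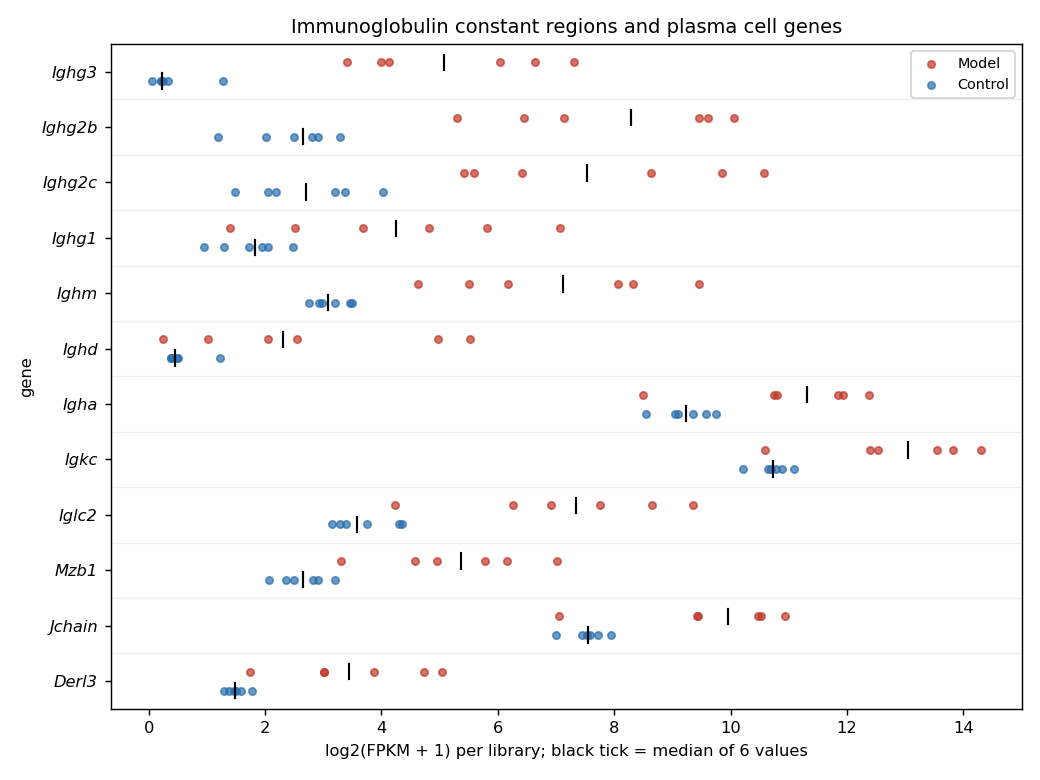
Level in log2(FPKM + 1) of 9 immunoglobulin constant genes and 3 plasma cell genes in 6 Model libraries (upper row of each gene) and 6 Control libraries (lower row), with a tick at the median. For Ighg3, Ighg2b, Ighg2c, Ighm and Mzb1 every Model point is right of every Control point. For Igha, Igkc, Iglc2, Jchain and Derl3 1 Model library, Model_1341, does not exceed all Control points.

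Some plasma cell genes also rose. Of 15 plasma cell genes 7 rose and 1 fell, with a median of 1.56. The number that rose was 2 or 3 with any 1 of the 7 libraries left out and 4 without Model_1337. Mzb1, a chaperone that assembles immunoglobulin, was at 8.90 to 128 FPKM in the Model libraries (median 41.9), against 3.22 to 8.21 FPKM in the Control libraries (median 5.34). All Model libraries were above all Control libraries, and the log2 fold change was 3.20 ± 0.53 (edgeR adjusted p = 0.0141). Derl3, which extracts misfolded proteins from the endoplasmic reticulum, rose by 2.89 and was called in all 12 fits. Its value in Model_1341 (2.33 FPKM) lay below that in Control_2668 (2.43 FPKM). Jchain, which joins IgA and IgM into polymers, averaged 1059.5 ± 668 FPKM in Model, against 188 ± 39.5 FPKM in Control (SD, n = 6 each) and was called in 8. Tnfrsf13b (TACI) rose by 2.25 and Tnfrsf17 (BCMA), both receptors for plasma cell survival factors, by 2.04, in 5 and 4 of the 12 fits. Cd38, an ectoenzyme of plasma cells and other leukocytes, fell (-1.65), in 2 of the 12 fits. Xbp1 (0.44) and Prdm1 (0.58), regulators of the plasma cell state that epithelium also uses, did not pass. Lax1 (ENSMUSG00000051998, chr1:133679091-133690108), a membrane adaptor of lymphocytes, was at 2.67 to 25.6 FPKM in the Model libraries (median 10.7), against 1.68 to 2.43 FPKM in the Control libraries (median 1.95), a log2 fold change of 2.54 ± 0.42 with no overlap. Of 6 B cell genes all had log2 fold changes above 0 (median 1.85) and 2 rose, Cd79a and Cd79b, the signalling chains of the B cell receptor. Cd79a was at 3.93 to 56.7 FPKM in the Model libraries (median 11.5), against 1.25 to 2.57 FPKM in the Control libraries (median 1.64) and lost its call without Control_2288 alone (adjusted p = 0.0505). Cd79b was lost with any 1 of the 7 left out. The number of B cell genes called was 4 without Model_1338 or Model_1341, 0 without Control_2288, and 1 to 3 otherwise.

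Of 14 T and NK cell genes 2 rose, Thy1 and Cd4 (2.07 ± 0.47), 5 rose without Model_1341, and 0 or 1 with any 1 of the 7 libraries left out. Over all genes tested 4.27% rose. Of 19 macrophage and monocyte genes none was called (median 0.84), but 11 were called higher without Model_1341. Mrc1, the mannose receptor of tissue macrophages, was at 2.24 to 25.5 FPKM in the Model libraries (median 9.37), against 2.38 to 5.32 FPKM in the Control libraries (median 3.82), with an edgeR adjusted p of 0.0546, and 0.0141 without Model_1341. Gpnmb, a glycoprotein of lipid-laden macrophages, was outside the list and was chosen here after its values were seen. It was at 0.680 to 23.8 FPKM in the Model libraries (median 6.74), against 0.400 to 1.11 FPKM in the Control libraries (median 0.575), a log2 fold change of 3.55 ± 0.62, and was called in all 12 fits. None of 5 neutrophil genes was called with all libraries, and 1 was called higher without Model_1341. Their median was 2.28 with all libraries and 1.12 without Model_1337. S100a9, a calcium-binding protein of neutrophils, was at 596 FPKM in Model_1337 and 0.816 to 34.6 FPKM in the other 5 Model libraries, against 0.567 to 26.5 FPKM in Control, and its edgeR adjusted p was 0.112. Arg1, arginase, was at 372 FPKM in Model_1337 and at most 2.75 FPKM in any other library.

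Mediators of acute inflammation were not called in either direction in the 17 tested genes, whose median was 0.07 and ran from -0.09 to 0.45 with 1 library left out. Il1b was at 2.72 to 104 FPKM in the Model libraries (median 10.9), against 1.36 to 26.4 FPKM in the Control libraries (median 5.73), an edgeR adjusted p of 0.362. The highest Model value, 104 FPKM, came from Model_1337, and Control_2289 (26.4 FPKM) was above the other 5 Model libraries. Tnf had a log2 fold change of -1.38 ± 0.67 and was highest in Control_2289 (14.7 FPKM). Il6 and Il17a stayed below the FPKM filter and were not tested. Of 20 interferon response genes all had log2 fold changes below 0 (median -0.45, and -0.29 without Model_1337 or Model_1340), and 1 fell, the chemokine Cxcl10. Relative to the Control mean, the list was at 0.48 in Model_1316, 0.05 in Model_1341 and -1.21 to -0.44 in the other Model libraries. The Control libraries ran from -0.72 to 0.41, so the groups overlapped. Cxcl10 was at 2.21 to 6.79 FPKM in the Model libraries (median 2.63), against 4.66 to 53.6 FPKM in the Control libraries (median 7.22). Its log2 fold change was -2.22 ± 0.60 (edgeR adjusted p = 0.0499), Control_2289 was its highest library, and it was called in 1 of the 12 fits. Of 9 MHC class II genes 1 rose (4.27% of all genes tested did), H2-DMb2 (2.31 ± 0.61), in 3 of the 12 fits. The class II count was 2 without Model_1341, 1 without Model_1338 or Model_1339, and 0 otherwise. Of 15 complement genes 4 rose and 0 fell (median 0.94, and 0.62 without Model_1337), with 9 without Model_1341, 2 without Model_1337, and 0 to 2 with any 1 of the 7 libraries left out. C4b, a component of the classical pathway with a close copy beside it in the genome, was at 20.3 to 105 FPKM in the Model libraries (median 37.6), against 8.53 to 16.4 FPKM in the Control libraries (median 12.5) with no overlap, a log2 fold change of 1.81 ± 0.34, and lost its call without Control_2287 or Control_2288. Cd59a, which protects cells from complement lysis, rose by 0.94, and C3, the central component, by 1.98.

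Several genes of cholesterol synthesis fell, and of all lists theirs held the most falls called in all 12 fits. Cells build cholesterol from acetyl-CoA through mevalonate and squalene or take it up from lipoproteins, and both routes are driven by the transcription factor SREBP2. Of 25 sterol synthesis and uptake genes 24 had log2 fold changes below 0, 11 fell and 0 rose (1.48% and 4.27% of all genes), and the median was -0.43. The number was 6 without Model_1340, Control_2286 or Control_2288, 7 without Model_1316, Model_1338, Model_1339, Control_2285, Control_2287 or Control_2289, and 10 or 11 otherwise. In all 12 fits 6 fell. Hmgcs1 (ENSMUSG00000093930, chr13:119690379-119708260), which makes HMG-CoA, had the smallest p of all 13403 genes. It was at 35.9 to 57.2 FPKM in the Model libraries (median 47.3), against 74.8 to 94.3 FPKM in the Control libraries (median 82.0). Every Model library was below every Control library, and the log2 fold change was -0.86 ± 0.093 (edgeR adjusted p = 0.00454). Sqle (ENSMUSG00000022351, chr15:59315077-59331192), squalene epoxidase, was at 13.1 to 21.9 FPKM in the Model libraries (median 17.1), against 22.4 to 30.7 FPKM in the Control libraries (median 28.3), a log2 fold change of -0.71 ± 0.12 with no overlap. Msmo1, which removes methyl groups from the sterol ring, averaged 20.0 ± 2.74 FPKM in Model, against 30.6 ± 3.70 FPKM in Control (SD, n = 6 each). Fdft1, squalene synthase, averaged 23.1 ± 1.48 FPKM in Model, against 34.7 ± 3.46 FPKM in Control (SD, n = 6 each). Mvk, mevalonate kinase, averaged 8.88 ± 1.11 FPKM in Model, against 12.5 ± 1.17 FPKM in Control (SD, n = 6 each), and its only overlap was Model_1337 (11.1 FPKM) with Control_2668 (11.01 FPKM). Cyp51 (-0.59), Lss (-0.54), Fdps (-0.43) and Srebf2, the gene of SREBP2 (-0.31), fell in 1 to 9 of the 12 fits. Aacs, which returns acetoacetate to acetyl-CoA units for lipid synthesis in the cytosol, averaged 17.9 ± 2.41 FPKM in Model, against 28.6 ± 2.92 FPKM in Control (SD, n = 6 each), a log2 fold change of -0.70 ± 0.093 in all 12 fits. In each library the sterol list lay 0.27 to 0.62 below the Control mean in Model, against 0.13 below to 0.18 above it in Control. Model_1337, which stood apart in epithelial genes, was at -0.45, and Model_1341 was lowest at -0.62. The part of epithelial content in the sterol falls was not tested. Of 16 fatty acid synthesis genes 1 fell (Elovl6, -0.53), with a median of -0.14, in 4 of the 12 fits.

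The promoters of these genes were searched for short motifs of known regulators. The 200 bases before the start annotated in RefSeq are printed for the 3 called members with the smallest p among those in the RefSeq promoter table (build GRCm38.p6, the assembly of mm10). Capitals mark CCAAT, the core of the NF-Y site (ATTGG on the opposite strand), and TCACNCCAC, a form of the sterol regulatory element of SREBP, both searched on both strands. The windows are chr13:119690151-119690350 on the plus strand, chr8:64733579-64733778 on the minus strand and chr5:114444069-114444268 on the plus strand.
Hmgcs1: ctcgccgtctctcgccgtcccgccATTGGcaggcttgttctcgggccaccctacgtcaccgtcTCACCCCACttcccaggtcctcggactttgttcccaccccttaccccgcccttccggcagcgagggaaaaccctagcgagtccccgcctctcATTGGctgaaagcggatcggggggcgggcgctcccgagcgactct
Msmo1: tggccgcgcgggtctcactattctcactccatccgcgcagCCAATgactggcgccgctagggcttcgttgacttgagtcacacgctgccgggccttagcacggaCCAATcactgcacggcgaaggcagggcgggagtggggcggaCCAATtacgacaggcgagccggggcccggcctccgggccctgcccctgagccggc
Mvk: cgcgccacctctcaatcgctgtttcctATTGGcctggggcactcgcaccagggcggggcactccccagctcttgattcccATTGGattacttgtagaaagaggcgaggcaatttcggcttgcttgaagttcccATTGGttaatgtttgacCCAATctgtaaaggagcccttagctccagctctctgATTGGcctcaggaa
Hmgcs1 held 2 CCAAT and 1 TCACNCCAC, Msmo1 3 CCAAT and Mvk 5, and no 2 matches overlapped. Of the 25 sterol genes 17 were in the table, and 15 of these had CCAAT in the window, against 3501 (36.3%) of the 9646 tested genes in the table. TCACNCCAC was in 1 of the 17 (Hmgcs1) and in 1.03% of the 9646. A match is a run of letters, and binding was not measured.

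Some genes of DNA replication and cell division also fell. Crypt progenitors divide quickly, and their S and G2/M phase transcripts are a large part of a colon's proliferation signal. Of 40 DNA replication genes 12 fell and 0 rose (median -0.55, with 39 of 40 below 0), and of 34 mitosis genes 13 fell and 0 rose (median -0.69, all 34 below 0). The replication count was 21 without Control_2668, 7 without Model_1339, 5 without Control_2285, 4 without Control_2289, and 1 without Model_1316, Model_1340, Control_2286, Control_2287 or Control_2288. The mitosis count was 3 without Model_1337, Control_2285 or Control_2287, 4 without Model_1339, 1 without Model_1316, Model_1340, Control_2286, Control_2288 or Control_2289, and 12 to 19 otherwise. Lig1 (ENSMUSG00000056394, chr7:13277283-13311433), the ligase that joins Okazaki fragments, was at 4.63 to 6.62 FPKM in the Model libraries (median 5.40), against 8.02 to 11.8 FPKM in the Control libraries (median 9.57). The groups did not overlap, the log2 fold change was -0.79 ± 0.11 and the edgeR adjusted p 0.00960. Ncapd2, a subunit of the condensin complex that compacts chromosomes, averaged 6.14 ± 0.632 FPKM in Model, against 9.53 ± 1.09 FPKM in Control (SD, n = 6 each), a log2 fold change of -0.66 ± 0.091. E2f8 (ENSMUSG00000046179, chr7:48866429-48881596), an atypical E2F repressor induced in S phase, was at 1.71 to 2.98 FPKM in the Model libraries (median 2.28), against 3.27 to 7.96 FPKM in the Control libraries (median 5.19), a log2 fold change of -1.23 ± 0.21 with no overlap. Neil3, a DNA glycosylase, had a log2 fold change of -0.92. All 4 were called in all 12 fits. Top2a, the topoisomerase that untangles chromosomes, was at 5.91 to 10.7 FPKM in the Model libraries (median 9.65), against 11.6 to 22.5 FPKM in the Control libraries (median 16.3), without overlap but called in 7 of the 12 fits, and Mki67, the common proliferation marker, fell (-0.60) in 2. Cdc6 (-0.84), Mcm10 (-0.72) and Mcm7 (-0.56) load or start the replicative helicase, and Ccna2 (-1.05), Ccnb2 (-0.87) and Cdk1 (-0.79) drive entry into mitosis. These 6 fell in 3 to 5 of the 12 fits. Mcm2 (-0.51), Plk1 (-0.51) and Ccnb1 (-0.65) did not pass. The Control libraries were themselves spread, with the mitosis list 0.24 to 0.37 above the Control mean in Control_2286, Control_2288 and Control_2289 and 0.26 to 0.35 below it in Control_2285, Control_2287 and Control_2668, against 0.28 to 0.71 below it in Model, so the groups overlapped. They overlapped in the replication list too, at 0.12 to 0.68 below the Control mean in Model. In Control that list ran from 0.37 below it (Control_2668) to 0.24 above it (Control_2286). Of 14 crypt stem and progenitor genes 1 fell, Cdca7 (-0.56 ± 0.12), in 5 of the 12 fits, and the median was -0.11.

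Promoters are printed by the same rule for the 3 called mitosis genes with the smallest p among those in the promoter table. The windows are chr6:125191587-125191786, chr11:99024190-99024389 and chr4:118437344-118437543, all on the minus strand. Capitals mark CCAAT and TTTGAA, the cell cycle gene homology region (CHR) bound by the MuvB complexes (TTCAAA on the opposite strand).
Ncapd2: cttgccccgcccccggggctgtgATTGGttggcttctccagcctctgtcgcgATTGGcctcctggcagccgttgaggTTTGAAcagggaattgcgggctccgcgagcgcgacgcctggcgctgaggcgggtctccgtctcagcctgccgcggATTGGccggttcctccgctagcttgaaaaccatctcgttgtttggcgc
Top2a: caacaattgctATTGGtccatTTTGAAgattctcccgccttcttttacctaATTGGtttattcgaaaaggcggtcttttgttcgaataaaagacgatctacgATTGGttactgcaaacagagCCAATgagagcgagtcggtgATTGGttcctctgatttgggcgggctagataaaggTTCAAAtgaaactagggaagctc
Cdc20: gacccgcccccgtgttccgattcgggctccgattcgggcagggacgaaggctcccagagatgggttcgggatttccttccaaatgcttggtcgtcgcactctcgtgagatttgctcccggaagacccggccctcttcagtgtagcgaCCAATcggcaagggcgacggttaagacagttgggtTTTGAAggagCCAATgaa
Ncapd2 held 3 CCAAT and 1 TTTGAA, Top2a 5 and 2, and Cdc20 2 and 1, with no overlap between matches. Of the 34 mitosis genes 27 were in the table, with CCAAT in 21 and TTTGAA in 10. Over the 9646 tested genes in the table TTTGAA was in 9.49%. TTTGAA was in 4 of 33 replication genes and in 1 of 17 sterol genes.

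**Figure D5:**
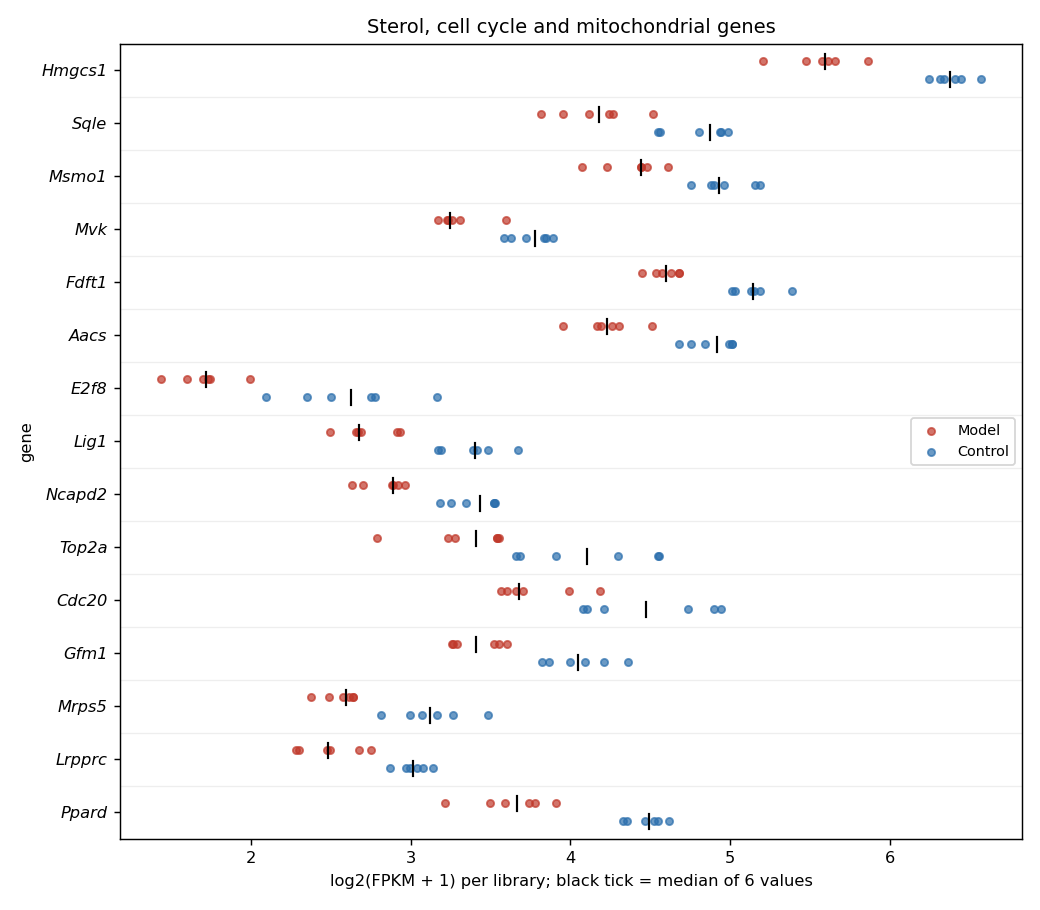
Level in log2(FPKM + 1) of 15 sterol, cell cycle and mitochondrial genes in 6 Model libraries (upper row) and 6 Control libraries (lower row), with a tick at the median. In all but Mvk and Cdc20 the Model points lie left of the Control points with no overlap, and the differences are small, -1.23 to -0.52 on the log2 scale in edgeR.

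Several genes of gene expression within the mitochondrion fell. Gfm1 (ENSMUSG00000027774, chr3:67430096-67476529), the elongation factor of mitochondrial ribosomes, was at 8.59 to 11.1 FPKM in the Model libraries (median 9.63), against 13.1 to 19.5 FPKM in the Control libraries (median 15.5), a log2 fold change of -0.73 ± 0.12 (edgeR adjusted p = 0.0121). Mrps5, a protein of the small mitochondrial ribosomal subunit, averaged 4.88 ± 0.416 FPKM in Model, against 7.86 ± 1.43 FPKM in Control (SD, n = 6 each). Lrpprc, which stabilises mitochondrial mRNA, averaged 4.68 ± 0.753 FPKM in Model, against 7.09 ± 0.520 FPKM in Control (SD, n = 6 each), and Supv3l1, a mitochondrial RNA helicase, had a log2 fold change of -0.50. In all 4 the groups did not overlap and the gene was called in all 12 fits. Gfm1, Mrps5 and Lrpprc were named because they met these conditions, so this is no separate result. In terms chosen after their values were seen, Mitochondrial translation had 10 of 89 genes lower (11.2%). The mitochondrial large ribosomal subunit had 3 of 59 (5.08%), against 1.48% of all genes tested. Of the 22 citrate cycle genes all had log2 fold changes below 0 (median -0.45), and 5 fell. That count was 0 without Model_1316, Model_1340 or Control_2285 to Control_2288, 1 without Control_2289 and 2 without Model_1339. Pdhb, a pyruvate dehydrogenase subunit, averaged 22.3 ± 2.55 FPKM in Model, against 29.3 ± 1.64 FPKM in Control (SD, n = 6 each), and Dlst, of the 2-oxoglutarate dehydrogenase complex, averaged 16.4 ± 2.01 FPKM in Model, against 22.5 ± 0.959 FPKM in Control (SD, n = 6 each), both without overlap. Of 33 respiratory chain genes 2 fell (median -0.40, all 33 below 0), Ndufs1 of complex I (-0.72 ± 0.15) and Sdha of complex II (-0.60 ± 0.16), and 8 fell without Model_1341, while 0 or 1 did without Model_1339, without Control_2668 or with any 1 of the 7 left out. Of 23 fatty acid oxidation and ketone body genes 1 fell (Acadl, -0.44), in 3 of the 12 fits. Epithelial cells are rich in mitochondria, and the respiratory list was lowest in Model_1337 (-1.01), which was also lowest in colonocyte and goblet genes. Without Model_1337 the citrate cycle count was 4 with a median of -0.36, and the respiratory count was 2 with a median of -0.30. The part of epithelial content in these falls was not tested. Ppard (ENSMUSG00000002250, chr17:28232700-28301474), a nuclear receptor that responds to fatty acids and is abundant in colon epithelium, was at 8.28 to 14.001 FPKM in the Model libraries (median 11.7), against 19.1 to 23.6 FPKM in the Control libraries (median 21.5), a log2 fold change of -0.90 ± 0.16 with no overlap.

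Protein turnover genes were read against the 1.48% of all genes that fell and the 4.27% that rose. For the unadjusted edgeR p, 3701 of all 13403 genes tested were under 0.05, in either direction. Of 31 proteasome subunits all had log2 fold changes below 0 (median -0.31), 20 had an unadjusted edgeR p under 0.05, and 2 fell, 10 without Control_2668, 4 without Model_1337, and 0 or 1 without Model_1316, Model_1338 to Model_1340 or Control_2285 to Control_2289. Of 16 immunoproteasome and MHC class I genes 2 fell, 4 without Model_1341, 1 without Model_1316, Model_1339, Control_2285 or Control_2289, and 0 without Model_1340 or Control_2286 to Control_2288. Psmb10, an immunoproteasome catalytic subunit, averaged 42.9 ± 11.6 FPKM in Model, against 82.6 ± 13.0 FPKM in Control (SD, n = 6 each), with no overlap, and Erap1, which trims peptides for MHC class I, averaged 9.68 ± 1.25 FPKM in Model, against 13.2 ± 1.56 FPKM in Control (SD, n = 6 each). They were called in 4 and 8 of the 12 fits. Of 20 aminoacyl-tRNA synthetases all were below 0 (median -0.16, and -0.28 without Model_1337), 7 had an unadjusted p under 0.05, and 2 fell, Farsb (-0.57) and Gars (-0.58), 5 without Control_2668, 3 without Model_1341, and 0 or 1 with any 1 of the 7 libraries left out. Of 31 endoplasmic reticulum folding genes 2 rose, Edem2 (0.48) and Herpud1 (0.70), both of the pathway that degrades misfolded proteins. That count was 5 without Model_1341, and 0 or 1 with any 1 of the 7 libraries left out. Farsb, Gars, Edem2 and Herpud1 were called in 5 to 8 of the 12 fits.

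Among absorptive colonocyte, goblet, enteroendocrine and tuft cell genes (22, 17, 13 and 8 tested) none was called in either direction, with medians of -0.50, 0.07, -0.29 and 0.07. Without Model_1337, 1 colonocyte gene was called higher, and the medians were -0.30, 0.28, -0.09 and -0.01. The spread between libraries was wide. Car1, a carbonic anhydrase of colonocytes, was at 57.9 to 8021 FPKM in the Model libraries (median 1084), against 1071 to 8845 FPKM in the Control libraries (median 5271). Ceacam1, an adhesion molecule of the colonocyte surface, was at 104 to 753 FPKM in the Model libraries (median 645), against 948 to 1241 FPKM in the Control libraries (median 1159). All 6 Model values of Ceacam1 were below the Control values, but its log2 fold change of -1.06 ± 0.40 had an edgeR adjusted p of 0.116, with Model_1337 at 104 FPKM and the other Model libraries at 347 to 753 FPKM. Zg16, a lectin of goblet cell mucus, was at 104 to 2207 FPKM in the Model libraries (median 1304), against 428 to 670.5 FPKM in the Control libraries (median 606). Of 18 junction genes none was called (median -0.34, and -0.17 without Model_1337), and 2 were called lower without Model_1341, among them F11r (-0.59). Of 16 fetal-like repair genes 2 rose, Ccn2 (1.91 ± 0.47), a target of the Yap coactivator, and Clu (1.68 ± 0.43), a secreted chaperone of revival stem cells, both in 3 of the 12 fits. That count was 4 without Model_1341, 3 without Model_1338, 2 without Model_1339, and 0 otherwise. The repair list was highest in Model_1337 (2.13 above the Control mean, 0.23 to 0.86 in the other Model libraries), and Control_2289 (0.90) was above those 5.

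Secreted defence proteins moved in opposite directions. Slpi (ENSMUSG00000017002, chr2:164354070-164356507), an inhibitor of neutrophil elastase with antibacterial activity, was at 11.6 to 179 FPKM in the Model libraries (median 57.1), against 1.61 to 7.06 FPKM in the Control libraries (median 2.11). All Model libraries were above all Control libraries, and the log2 fold change of 4.42 ± 0.74 (edgeR adjusted p = 0.0141) held in all 12 fits. Of 21 antimicrobial and epithelial defence genes Slpi alone rose, 3 fell and the median was -0.54 (-0.85 without Model_1341). The 3 that fell were Reg3a, Reg3b and Reg3g, C-type lectins of enterocytes that bind bacteria and share much of their sequence, so the split among them is uncertain. Reg3b was at 0.421 to 189 FPKM in the Model libraries (median 38.2), against 551 to 14418 FPKM in the Control libraries (median 7041). Reg3g was at 0.480 to 55.5 FPKM in the Model libraries (median 21.5), against 109 to 3641 FPKM in the Control libraries (median 1666). No Model library reached the lowest Control library, and the lowest Model values came from Model_1337 and Model_1340. The log2 fold changes were -6.57 ± 1.49 and -6.09 ± 1.34, with edgeR adjusted p-values of 0.0336 and 0.0307. All 3 calls were lost with any 1 of the 7 libraries left out, with an adjusted p of at most 0.0760 for Reg3b. The Control values of Reg3b were lowest in Control_2668 and highest in Control_2288. Small intestine, where these lectins are abundant, had markers in the libraries of both groups. They summed to 2043 FPKM in Control_2286, as given above, to 514 FPKM in Control_2668, 217 FPKM in Control_2288 and 170 FPKM in Control_2289. In the Model libraries they summed to 43.1 to 381 FPKM. Model_1338 (381 FPKM), Model_1339 (376 FPKM) and Model_1341 (343 FPKM) lay above Control_2288 and Control_2289. The part of small intestine was not tested.

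Ferroptosis, the process the series asks about, is restrained by the lipid peroxidase Gpx4 with glutathione made from imported cystine, and is favoured by Acsl4, which loads membranes with polyunsaturated fatty acids. Of 33 tested ferroptosis genes 1 fell and 0 rose, with a median of -0.01. The gene that fell was Fdft1, already given as a sterol enzyme. Gpx4 was at 48.2 to 84.9 FPKM in the Model libraries (median 66.0), against 45.0 to 61.2 FPKM in the Control libraries (median 54.2), a log2 fold change of 0.29 ± 0.14 and an edgeR adjusted p of 0.204. Acsl4 was at 3.05 to 18.3 FPKM in the Model libraries (median 7.57), against 3.91 to 6.69 FPKM in the Control libraries (median 4.59), an adjusted p of 0.135, and 0.0478 without Model_1341. Slc7a11, the cystine importer, was below the FPKM filter, with 0.558 to 8.16 FPKM in Model and 0.0913 to 0.722 FPKM in Control. The Ferroptosis term of KEGG had 36 tested genes, of which 1 rose (Map1lc3a) and 0 fell. A p above the threshold does not show equal levels. In a simulation with 200 changed genes and the same spread in both groups, edgeR recovered 8.96% of 1.5-fold changes. The real Model libraries were less alike than the Control libraries, so that rate need not hold here.

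The remaining lists are set beside the 4.27% of all genes tested that rose, and 1 call is not read as a change of a list. Among them, 1 of 22 glycolysis and hypoxia genes rose (Bnip3, 0.84), 1 of 36 xenobiotic metabolism genes rose (Gsta3, 0.65, with a list median of -0.70), 1 of 15 immediate early genes rose (Klf2, 0.90, a flow-responsive factor of endothelium), and 0 of 17 clock genes were called. These genes were called in 3, 5 and 9 of the 12 fits. The clock genes Per1 (0.81) and Per2 (0.65) were called higher without Control_2668. Of 9 fat cell and 8 small intestine genes 0 were called.

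In the KEGG, GO and Reactome columns of the table, the terms with most calls held genes described above. Terms with 20 to 300 tested genes were picked by the share of their genes called, so the shares are a description. The background was 4.27% higher and 1.48% lower. In Reactome, Collagen chain trimerization had 13 of 22 genes higher (59.1%, median log2 fold change 1.01), Molecules associated with elastic fibres 14 of 27 (51.9%), Non integrin membrane ECM interactions and ECM proteoglycans 13 of 28 each (46.4%), and MET activates PTK2 signaling 8 of 21. In GO, the structural constituents that confer tensile strength had 13 of 23 higher (56.5%), and collagen fibril organization 12 of 22. These terms share members, among them Col5a2 and Col1a1. In KEGG, the share was highest in ECM-receptor interaction (14 of 52), Protein digestion and absorption (13 of 49, led by Eln and Col5a2) and the Intestinal immune network for IgA production (6 of 26, median 0.96, with Tnfrsf13b and the chemokine receptor Cxcr4). Malaria (7 of 34) and Complement and coagulation cascades (6 of 36) followed, and the called genes with the smallest p in Malaria were Vcam1 and Tgfb3 (0.88), a TGF-beta ligand.

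On the lower side, Cholesterol biosynthesis in Reactome had 9 of 24 genes lower (37.5%, median -0.39) and cholesterol biosynthetic process in GO 7 of 20. Terpenoid backbone biosynthesis in KEGG had 4 of 21. DNA replication in KEGG had 7 of 34 lower (20.6%), DNA strand elongation in Reactome 5 of 23, DNA replication initiation in GO 5 of 20 and condensed chromosome 5 of 22. The mitochondrial nucleoid had 7 of 42 lower (16.7%, median -0.26) and the mitochondrial small ribosomal subunit 5 of 29, and Mitochondrial translation in Reactome, chosen after its values were seen, 10 of 89. In terms of the same compartment, also chosen after their values were seen, the mitochondrial large ribosomal subunit in GO had 3 of 59 lower (5.08%) and Oxidative phosphorylation in KEGG 2 of 120 (1.67%). The citrate cycle in KEGG had 5 of 29. Inflammatory pathways of KEGG were chosen after their values were seen. Cytokine-cytokine receptor interaction had 14 of 128 higher (10.9%) and 2 lower, with a median of 0.52. IL-17 signaling had 0 of 64 higher and 1 lower (Cxcl10), TNF signaling 5 of 91 higher (5.49%) and 2 lower, and NF-kappa B signaling 6 of 84 higher (7.14%) and 0 lower.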

How the data were processed

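Polyadenylated colon RNA with an integrity number above 7 was made into strand-marked (dUTP) paired-end libraries and sequenced on a NovaSeq, per the labels' protocols. The submitters' processing notes name cutadapt 1.9, HISAT2 2.2.1, StringTie 2.1.6 and mm10, and DESeq2 and edgeR without role. No source used here gives the annotation release or the strand setting, so overlapping and antisense genes are uncertain. The authors deposited FPKM and estimated counts per gene and library, as whole numbers for the counts. The values 4, 8 and 12 occurred 2.38, 1.72 and 1.36 times as often as the values beside them, so counts may overstate fragments, and counts divided by 4 were tried.

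Genes with FPKM of at least 1 in at least 6 of the 12 libraries were tested with edgeR 4.0.16 (quasi-likelihood, TMM) in R 4.3.3 on the 12 libraries, adjusted over 13403 genes, with a threshold of 0.05. limma 3.58.1 and DESeq2 1.42.0 were alternatives. Summaries used pandas 2.3.3 and numpy 2.4.6 under Python 3.11.15, and figures matplotlib 3.10.9. On simulated data with 200 changed genes and the same spread in both groups, 8.96%, 52.2% and 92.4% of 1.5-, 2- and 4-fold changes were recovered, with 3 false calls (2.86%). No pair of libraries held identical counts. Gene coordinates are those of the deposited table, and promoter windows are counted from RefSeq starts, which can differ. The Msmo1 window lies inside the deposited gene (chr8:64718139-64733792), and the Ncapd2 window lies partly inside its own (gene end 125191701).

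The comparison and the gene lists were chosen with earlier results of these data known, so lists are described by counts and medians and not tested. Lists with at least 5 tested members are described (42 of 49). Genes named are the 12 largest rises and 12 largest falls among genes called in every fit leaving out 1 library, without overlap between groups, with a mean of at least 5 FPKM in the higher group and without predicted models and immunoglobulin segments. To these were added 2 members per list or annotation term, by p. A few genes that these rules name are not reported here. Other members, Gpnmb and the tissue markers were named after their values were seen. Precision is limited by depth through counting error only at low counts, and by the spread between 6 libraries elsewhere.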

Additional observations from a re-analysis of the deposited data

Results flagged for a closer look

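In 138 checks of a single library against the other 5 of its group, 16 values stood far from the rest, where chance gives about 1 in 20. Of these, 6 were in Model_1337. Its mean log2(FPKM + 1), relative to Control, was -2.61 for absorptive colonocyte, -3.06 for goblet cell, -1.45 for enteroendocrine, -1.96 for antimicrobial and -1.41 for junction genes, and 2.13 for fetal-like repair genes. Model_1341 stood apart in its total count (79147073), its mitochondrial share (16.99%) and its T and NK cell genes (-0.43). Among the Control libraries, Control_2285 was low for macrophage and monocyte genes (-0.66) and lymphatic endothelium genes (-0.57), Control_2668 was low for junction genes (-0.20), and Control_2286 was high for small intestine genes (2.22) and in total count (65705141). Lum was high in Control_2289 (27.9 FPKM) and Sox18 in Control_2287 (5.32 FPKM), still below every Model library.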

How the results depend on the processing

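All 771 log2 fold changes kept their sign with each library left out, but the counts of calls moved. With 1 library left out, 70 to 1046 genes were called higher and 25 to 357 lower, against 572 and 199 with all 12. Counts moved by over 1.5 times with DESeq2 (1328 higher, 834 lower), with the spread estimated over all 18 libraries (1598 and 998), without a filter on low values (99 and 35 of 34738 genes), with limma on log2(FPKM + 1) (93 and 51) and on log2(FPKM + 0.1) (97 and 46), and for lower calls with limma voom library weights (360). An exact rank sum test called 0 genes either way, since its smallest adjusted p was 0.0752, with 2804 genes at an unadjusted p under 0.05; edgeR had 3701. The cause of the other moves was not tested. DESeq2 size factors (489 and 217), upper quartile scaling (565 and 174), edgeR's own filter, robust fitting, counts divided by 4, and leaving out both Model_1337 and Model_1341 (725 and 258) stayed within 1.5 times. Depth limits low genes, and the number of libraries limits small changes. No paired analysis was possible because the library numbers are not shared between the groups.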
